A study of Caenorhabditis elegans with 4 samples.

Results

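The 1752 RNA polymerase II (Pol II) peaks listed on chromosome II of Caenorhabditis elegans were taken as every entry of the deposited peak list that names this chromosome, out of 10731 peaks in all. The list came from chromatin immunoprecipitation and sequencing (ChIP-seq) of whole hermaphrodites of N2, the wild-type laboratory strain, at the L4 larval stage and grown at 20 °C. It combines 4 samples, namely 2 ChIP DNA and 2 input DNA samples, both kinds being wild type and of the same stage. Formaldehyde was used at 2% for all 4 samples. The ChIP samples carry the label of antibody 8WG16, which recognises the heptad repeats at the C terminus of the polymerase's largest subunit; the protocol text instead names embryos and an antiserum to GFP, and the stage and antibody labels were followed. Whole worms mix all tissues, so a peak does not say in which cells Pol II was bound, and fewer bound cells cannot be told apart from less Pol II per cell.

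Pol II transcribes protein-coding genes and many small nuclear RNAs. Where a gene is transcribed heavily, the polymerase is found along the whole gene body, whereas at many other genes it is found mostly near the start. Chromosomes of C. elegans have no single centromere, and an autosome is instead divided into a central region with little recombination, which holds most conserved and essential genes, and 2 arms with more recombination, more repeats and many fast-changing gene families. The left end of II is also where its meiotic pairing centre lies.

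Positions are given on build WS190. Chromosome II was measured from its first base to the end of its last listed peak at 15273948, a span of 15.3 Mb, and split into 3 equal segments of 5.09 Mb, called left, middle and right. The segments were cut by length and not at the borders of the central region and the arms. Strength is −log10 of the q-value that the authors deposited for each peak, so that a higher value stands for a smaller q; it reflects enrichment but also read depth, which is unknown, and the width of the peak. With 1 combined list there was no spread between replicates, so no difference below was tested. The 95% intervals are binomial, cover counting error only and treat peaks as independent, which neighbouring peaks are not.

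Peaks were sparse in the left segment of chromosome II and dense in the middle and right segments. The left segment held 379 peaks, or 74.4 per Mb. The middle segment held 737, or 145 per Mb, and the right segment held 636, or 125 per Mb. The right segment was thus 1.68-fold denser than the left (95% interval 1.47 to 1.91), and the middle was 1.45-fold denser than the outer segments together (1.32 to 1.60). The length inside peaks differed less, at 6.34% of the left, 9.66% of the middle and 8.23% of the right segment, a right-to-left ratio of 1.30.

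On the other autosomes compared, the outer segments differed by less or in the other direction. The right-to-left ratio of density was 1.17 on III (1.04 to 1.31), 0.980 on V (0.850 to 1.13) and 0.729 on IV (0.647 to 0.822), so IV was the chromosome with the sparser right side. In covered length II and III were alike in this ratio, at 1.30 and 1.28, against 0.969 on V and 0.746 on IV. The right segment of II, at 125 peaks per Mb, lay below that of III at 137 and above those of IV at 82.4 and V at 55.8. The left segment of II lay between that of V, at 57.0, and those of IV and III, at 113 and 118.

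**Figure D1:**
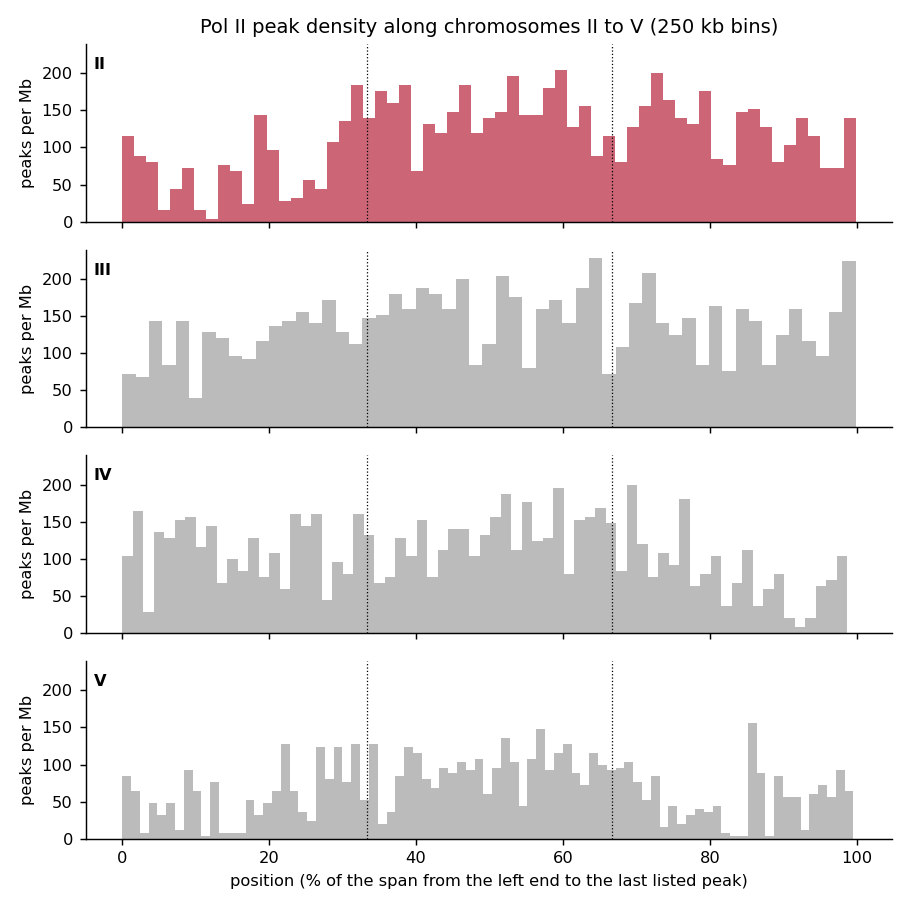
Peaks per Mb in consecutive 250 kb bins along chromosomes II, III, IV and V, against position as a percentage of the span; dotted lines mark the 3 segments and the incomplete last bin of each chromosome is left out. On II the lowest bins, down to 4 peaks per Mb, lie in the left segment, and the highest, 204 per Mb, lies in the middle segment.

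The low density did not fill the left segment evenly. In 1 Mb bins, counted from the left end, the left side of II held 75, 34, 78 and 53 peaks, and the fifth bin already held 118. From there to the end no full bin held fewer than 100 peaks, and the fullest, from 8000001 to 9000000, held 166. The fullest bin thus held 4.88 times as many peaks as the emptiest, which runs from 1000001 to 2000000. The same fold was 1.98 on III, 3.66 on IV and 4.24 on V. By 25% steps of the span, density on II was 59.7, 133, 145 and 121 peaks per Mb from left to right. The step from the first to the second 25% was therefore larger than any difference among the other three.

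The extreme left end was not part of the sparse zone. The first 300 kb of II held 35 peaks (117 per Mb) with 14.0% of the length covered, and the last 300 kb held 38 peaks (127 per Mb) with 11.1% covered. On III the same ends held 25 and 62 peaks, on IV 38 and 25, and on V 24 and 31.

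Short gaps were alike in all segments of II, and the left segment differed in the longer gaps. The median gap between neighbours was 2191 bp in the left segment (95% interval 1742 to 3121), 1861.5 bp in the middle (1587 to 2171) and 2030.5 bp in the right (1744 to 2443), so the 3 intervals overlapped. Gaps under 1 kb made up 33.5% of gaps in the left, 35.6% in the middle and 33.8% in the right segment. The upper part of the distribution differed. The 75th percentile of gap length was 10207 bp in the left, 5774.75 bp in the middle and 6971.5 bp in the right segment, and gaps of at least 10 kb numbered 96 of 379, 133 of 736 and 126 of 636. The 90th percentile was 30846 bp in the left, 19260.5 bp in the middle and 22488 bp in the right segment. The left segment held 23 gaps of at least 50 kb, the middle 8 and the right 14. Such stretches took 47.2% of the left segment, 10.9% of the middle and 17.2% of the right.

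**Figure D2:**
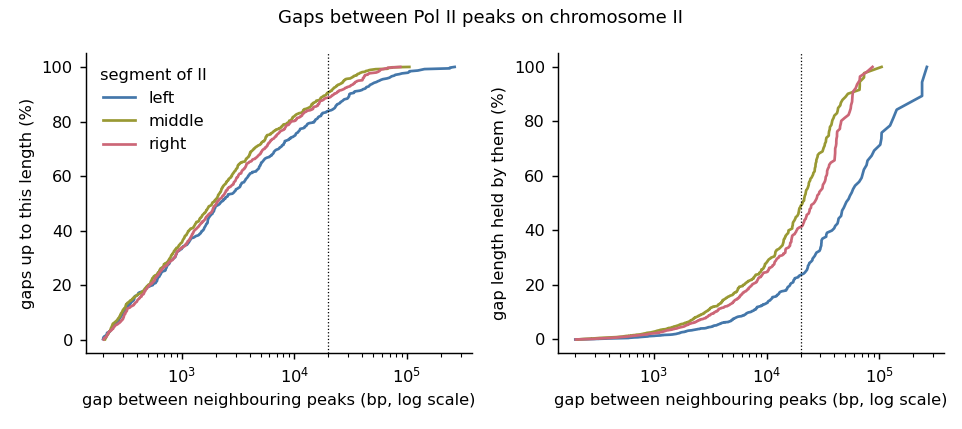
Gaps between neighbouring peaks in the left, middle and right segments of chromosome II, as the cumulative percentage of gaps (left panel) and of summed gap length (right panel) against gap length on a log scale; the dotted line marks 20 kb. The curves run together at short gaps, with medians of 2191, 1861.5 and 2030.5 bp, and are apart at the 75th percentile, at 10207 bp in the left, 5774.75 bp in the middle and 6971.5 bp in the right segment.

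Outside stretches of at least 20 kb without a peak, the segments of II had nearly the same density, at 262 peaks per Mb in the left, 270 in the middle and 272 in the right. Outside stretches of at least 100 kb alone, the densities were still 104 in the left, 148 in the middle and 125 in the right segment. The right-to-left ratio was 1.04 outside stretches of at least 20 kb and 1.07 outside those of at least 50 kb. Taking out long gaps evens out density in part by construction, and the same calculation gave 243 to 286 peaks per Mb over the 12 segments of II, III, IV and V. The evenness is therefore shared with the other chromosomes. In the share of length lost to stretches of at least 50 kb, the left segment of II (47.2%) stood beside the right segment of IV (47.1%) and below the outer segments of V (54.6% left, 56.5% right), while the left segment of III had 25.1%.

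**Figure D3:**
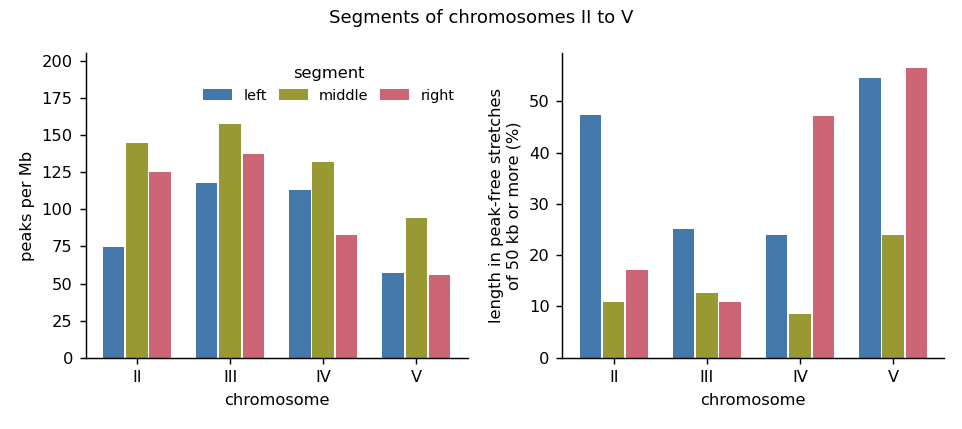
Peaks per Mb (left panel) and the percentage of length in peak-free stretches of at least 50 kb (right panel) in the left, middle and right segments of chromosomes II, III, IV and V. The left segment of II has 74.4 peaks per Mb and 47.2% of its length in such stretches; its right segment has 125 per Mb and 17.2%.

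The 10 longest peak-free stretches of II each exceeded 100 kb and together made up 1562 kb, or 10.2% of its span; 9 of them lay in the left segment. The longest, 265 kb, ran from 1767777 to 2032568. The 2 that followed in length were both 240 kb, from 848917 to 1088979 and from 3567941 to 3807973. The next were 143 kb from 1520185 to 1663030, 133 kb from 2059342 to 2192794, 125 kb from 3306031 to 3430760 and 105 kb from 3813769 to 3918776. The only one outside the left segment, also 105 kb, ran from 9774947 to 9879792 in the middle. The last of the list were 104 kb from 1663125 to 1767575 and 102 kb from 2649348 to 2751379. No stretch in the right segment reached 100 kb; its longest was 87.1 kb. The longest stretches on the chromosomes set beside II were 171 kb on III, 240 kb on IV and 350 kb on V.

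Of these 10 stretches, 4 followed each other almost without interruption. Between 1520185 and 2192794, a length of 673 kb, only 4 peaks were listed. They were 94, 201, 228 and 371 bp wide, covered 894 bp together and had strengths between 2.12 and 2.67, close to the weakest that the list holds on II (2.00). The sparsest window of 500 kb on II, from 1520074 to 2020073, held 2 peaks. On V the sparsest window also held 2 peaks, on IV it held 4, and on III it held 30. The densest window of the same length on II, from 8869314 to 9369313, held 108 peaks, against 106 on III, 90 on IV and 66 on V.

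Peaks that bordered the long stretches were mostly weak. Among the 20 flanks of the 10 longest stretches, where a peak between neighbouring stretches counts at both, the median strength was 2.61 and 13 were below 3, that is, with q above 0.001. The strongest was a peak of 2486 bp and strength 21.6 at the left border of the stretch from 848917. Weak peaks were also common among all left-segment peaks at least 10 kb from any neighbour, where 16 of 28 (57.1%) were below 3. Among such isolated peaks the share was 33.3% in the middle of II (9 of 27) and 18.5% in the right (5 of 27). It was 36.8% on III, 29.3% on IV and 36.2% on V. Counting every peak of II, isolated or not, 20.9% had a strength below 3 (19.1 to 22.9), against 20.7% of the whole list. In the left segment 28.8% did (24.3 to 33.6), against 19.5% in the middle (16.7 to 22.6) and 17.9% in the right (15.02 to 21.13). Among the outer segments of III, IV and V this share ran from 17.8% in the left of IV to 29.1% in the right of V.

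Peaks in the left segment were wider but weaker than those elsewhere on II. Median width was 472 bp in the left segment (415 to 502), 375 bp in the middle (344 to 412) and 379.5 bp in the right (348 to 412). Median strength ran the other way, at 4.69 (4.01 to 5.22), 5.67 (5.20 to 6.04) and 6.20 (5.68 to 6.89). The strongest 10% of peaks in the left segment began at 23.7, and in the right segment at 38.7. Over the whole list the medians were 404 bp and 5.44. Medians wider and weaker than these were also found in sparse outer segments elsewhere. They were 540.5 bp and 4.92 in the left of V, and 480 bp and 4.45 in its right. In the right of IV they were 432.5 bp and 4.86. The rank correlation of width with strength (Spearman's rho) was 0.70 across all peaks of II, and 0.68, 0.73 and 0.73 within the left, middle and right segments; peaks are not independent, so no p-value is given.

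At equal listed width the order of strength on II was left, middle, right in each of 6 width classes. Among peaks from 500 to under 1000 bp, median strength was 5.69 in the left segment (4.81 to 6.92, 100 peaks), 8.52 in the middle (7.70 to 9.50, 162 peaks) and 11.2 in the right (9.69 to 12.9, 143 peaks), and none of these intervals overlapped. The medians of peaks from 1000 to under 2000 bp, in the same order, were 12.9 (9.15 to 23.7), 19.4 (15.2 to 25.1) and 31.9 (21.7 to 38.3), and all 3 intervals overlapped. Among those of 2000 bp or more they were 45.8, 48.3 and 80.2, with the intervals of left and right separate (22.7 to 63.4 and 67.3 to 123). In the classes under 250 bp the right and left medians differed by only 0.65 and 0.60, and their intervals overlapped or touched.

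**Figure D4:**
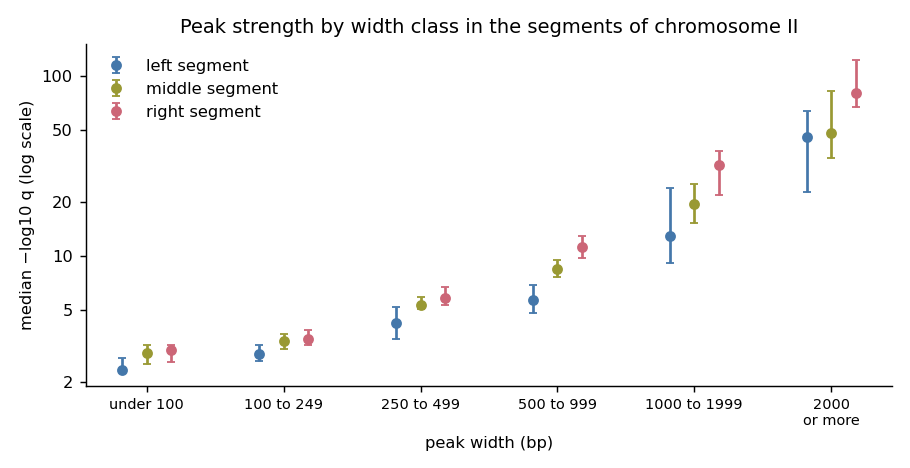
Median strength (−log10 q, log scale) of chromosome II peaks in 6 width classes for the left, middle and right segments; bars are 95% binomial intervals of the median. From 500 to under 1000 bp the medians are 5.69, 8.52 and 11.2, and their bars do not overlap.

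The other chromosomes did not share this order. On IV the left segment was the stronger outer one in all 6 classes, for example 9.66 on the left and 7.14 on the right from 500 to under 1000 bp. On III the left and right medians of that class were 8.49 and 9.35, and on V they were 5.83 and 4.92. On III and V the sign of the difference was not the same in every class. On both II and IV the sparser outer segment was thus also the weaker at equal width.

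The 10 strongest peaks of II all lay in the middle and right segments. Of them, 3 lay in the middle and 7 in the right segment, and none in the left. Among the 100 strongest of II, 16 lay left, 35 in the middle and 49 right, from 379, 737 and 636 peaks. Counted from the decile of smallest q in the whole list (strength of at least 29.1), II held 185 peaks: 27 in the left, 74 in the middle and 84 in the right segment. In this set the right-to-left ratio of density was 3.11 (2.00 to 4.99), higher than the 1.68 over all peaks. The left and right segments held 41 and 66 peaks of this decile on III, 89 and 42 on IV, and 34 and 41 on V. II held 17.2% of that decile (15.03 to 19.64) and 16.3% of the list, and took 15.3% of the span of the 6 nuclear chromosomes.

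The strongest peak of II, from 5333547 to 5341430, was 7884 bp wide with a strength of 295 (q = 5.68e-296). It was the fifth strongest of the whole list, just inside the middle segment at 34.9% of the span. The next was at 13193214 to 13199989 in the right segment, 6776 bp wide and with a strength of 278. It was followed by peaks at 10924834 to 10931420 (6587 bp, strength 269) and 10387899 to 10393969 (6071 bp, strength 267), also in the right segment. The peak at 10924834 stood alone, with no other peak within 10 kb on either side, whereas the strongest had 9 neighbours within that distance, none stronger than 20.8. The strongest peaks of III, IV and V had strengths of 290, 295 and 303.

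The remaining members of the 10 strongest were shorter. In the middle segment they were 8930826 to 8934193 (3368 bp, strength 238) and 7773451 to 7778571 (5121 bp, strength 227). In the right segment, 15225857 to 15230092 (4236 bp, strength 226) lay at 99.7% of the span. The last 3, with strengths of 219, 215 and 202, began at 11964647, 11974513 and 12036331 and so lay within 76.4 kb of each other. That interval held 9 peaks in all and was 21.0% covered.

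**Figure D5:**
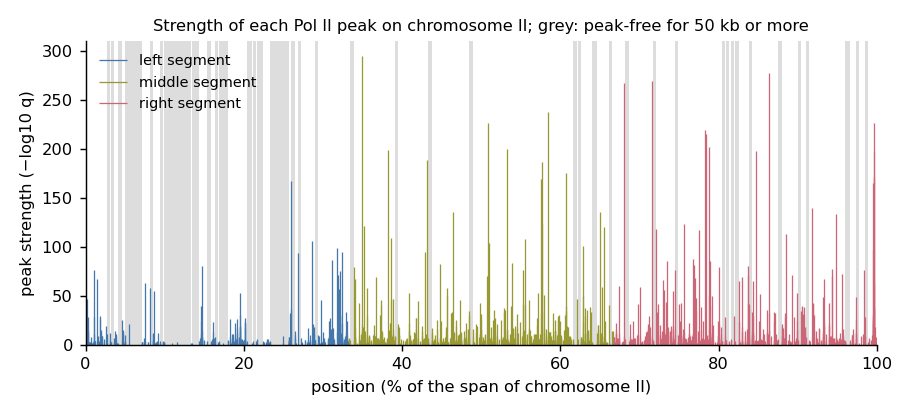
Strength (−log10 q) of each peak on chromosome II against position as a percentage of its span, coloured by segment; grey bands are peak-free for at least 50 kb. The tallest line, 295, is in the middle segment, the left segment reaches 167, and the widest grey bands lie in the left segment.

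Unlike the strongest peaks, the widest were spread over all segments, and the widest of all lay in the sparse left one. Of the 10 widest peaks of II, 3 lay left, 4 in the middle and 3 right, and 4 of the 10 were also among the 10 strongest. The widest, 15454 bp from 3955633 to 3971086, had a strength of 167 and ranked only at 20 by strength on II, although it was the strongest peak of the left segment. It began 36.9 kb after the end of a 105 kb stretch without a peak. The second widest, 11465 bp from 1141614 to 1153078, had a strength of 63.4. Both were also the widest and second widest of the whole list, which held 7 peaks of at least 10 kb. Next on II came a peak of 8260 bp from 162895 to 171154 with a strength of 76.5.

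The wide peaks of the middle segment included the strongest peak of II and 3 others of 7190 to 7625 bp, at 10008913, 6841034 and 8128222, with strengths of 120, 82.7 and 200. The 3 widest of the right segment, from 6071 to 6776 bp, were all among the 4 strongest. Peaks of at least 5 kb numbered 8 in the left, 5 in the middle and 5 in the right segment. They were 1.03% of the peaks of II, against 1.09% of the whole list. Peaks of at least 2 kb numbered 33, 50 and 36. This is 8.71% of left (6.07 to 12.01), 6.78% of middle (5.08 to 8.85) and 5.66% of right peaks (3.996 to 7.751). Such peaks made up 7.42% of the whole list, 6.38% of III, 8.39% of IV and 10.6% of V. On II they held 43.2% of the covered length in the left segment, 34.3% in the middle and 31.1% in the right. Without them the left segment was 3.604% covered and the right 5.67%, a wider contrast than with them.

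Wide peaks were not always strong, nor strong peaks always wide. Of the 119 peaks of at least 2 kb on II, 28 fell outside the strongest decile of the list. They were 13 of 33 in the left segment, 10 of 50 in the middle and 5 of 36 in the right. The same count was 18 of 121 on III, 45 of 160 on IV and 48 of 153 on V. The weakest peak of at least 2 kb on II was 2823 bp wide with a strength of 3.39, from 3430761 to 3433583. It bordered the 125 kb stretch that begins at 3306031. Conversely, 31 of the 185 peaks of II in the strongest decile were narrower than 1 kb, compared with 22 of 178 on III, 24 of 204 on IV and 19 of 160 on V. The strongest of them on II, 680 bp from 5844575 to 5845254, had a strength of 200. The next, 579 bp from 14017974 to 14018552 in the right segment, had 140 and no neighbour within 10 kb.

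Peaks lay in short series in every segment. On II, 53.3% of peaks (50.9 to 55.6) had a neighbour less than 1 kb away, at 52.5% in the left, 55.1% in the middle and 51.6% in the right segment. The share was 54.5% on III, 58.1% on IV and 47.6% on V. When peaks less than 1 kb apart were counted as 1 stretch, the left segment held 49.5 stretches per Mb, the middle 93.3 and the right 82.7. Each stretch held 1.50, 1.55 and 1.51 peaks on average, so it was the number of stretches and not the number of peaks in them that differed. Enriched regions that the caller cut into pieces would also give such series, and this was not tested.

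Isolated peaks had their lowest median strength in the left segment. Peaks at least 10 kb from any neighbour had a median strength of 2.65 in the left segment (2.26 to 4.31, 28 peaks), 4.44 in the middle (2.91 to 8.26, 27 peaks) and 5.82 in the right (3.83 to 12.2, 27 peaks), with overlapping intervals. Peaks with a neighbour within 1 kb had medians of 5.65 (4.97 to 6.73), 6.49 (5.82 to 6.98) and 7.26 (6.17 to 8.57). For peaks 1 to 10 kb from the nearest neighbour the left interval lay below the other two, with 3.47 in the left (3.18 to 4.42), 4.97 in the middle (4.56 to 5.35) and 5.35 in the right segment (4.74 to 6.27).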

How the data were processed

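Peaks were called with PeakSeq on WormBase build WS190, per the file headers and source field, and the authors deposited 1 list combined over 2 ChIP and 2 input samples, with a q-value for each peak and no value per sample. Versions, aligner and read filters are not given in the sources used here. The largest deposited q-value was 0.00998, and neighbouring peaks were at least 200 bp apart. Sequencing depth is unknown.

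Width was end minus start plus 1, and peaks were placed by midpoint. Gaps were placed by their own midpoint, and peak-free length was divided at segment borders. Density intervals came from the exact (Clopper-Pearson) interval of 1 segment's share of peaks, and intervals of medians from binomial order statistics. Functions were tested on simulated lists. The peaks named are the 10 strongest, the 10 widest, the strongest of each segment and the 10 longest peak-free stretches; other positions, including narrow strong and wide weak peaks, were chosen after their values were seen. The members, segments and comparisons were chosen with earlier results of these data known. Alternatives were other q limits, widths, joining distances and segment borders. No gene annotation or sequence of WS190 was used here, and peaks were not matched to genes. Calculations were run in Python 3.11.15 with pandas 2.3.3, numpy 2.4.6 and scipy 1.17.1, and figures were drawn with matplotlib 3.10.9.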

Additional observations from a re-analysis of the deposited data

How the results depend on the processing

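The denser right segment and the denser middle of II kept their direction under every alternative of q limit, width, joining distance and segment border. The right-to-left density ratio of 1.68 became 1.93 with q of at most 0.001, 2.16 among the 5366 peaks of the whole list with the smallest q, 2.02 with outer segments of 25%, and, added after the data were seen, 3.11 in the strongest decile and 1.04 or 1.07 outside peak-free stretches of at least 20 or 50 kb. Other settings, namely a width of at least 100 bp, joining below 500 or 2000 bp and outer segments of 20%, gave 1.66 to 1.74. Outside the peak-free stretches the contrast was nearly gone, in part by construction, and those ratios have no interval. At 20 kb the same calculation gave 0.953 on III and 1.02 on IV, against 1.17 and 0.729 over all their peaks. The middle-to-outer ratio of 1.45 ranged from 1.33 to 1.54; in the strongest decile its interval (0.980 to 1.81) included 1.

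The covered length ratio of 1.30 became 1.35 with q of at most 0.001, 1.41 with the smallest q, 1.29 with widths of at least 100 bp, 1.703 with outer 25% and 1.42 with outer 20%. The right-minus-left difference in median strength of 1.52 became 1.41, 1.11 and 1.95 under the first 3 of these, and 2.12 and 1.79 with outer 25% and 20%. The difference in median width of -92.5 bp became -157.5, -187.5 and -82.5 bp, -75 bp after joining below 500 bp, and -54.5 and -60.5 bp with outer 25% and 20%. Limits on q or width shift the medians by construction. The share of peaks in series, 53.3%, became 33.3% within 500 bp, 70.7% within 2000 bp and 49.6% with q of at most 0.001. No paired analysis was possible because the deposited list joins all samples, which also means that no replicate could be left out. Read depth, which limits the detection of weak and narrow peaks, is not known.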

Other observations

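The right end of II held a long, densely covered series of peaks. From 15202748 to 15224789, a length of 22.0 kb, 10 peaks lay less than 1 kb apart and covered 85.3% of the sequence, with a strongest member of 198. This was the longest such series on II, and the seventh strongest peak of the chromosome followed 1067 bp later. Series of similar length were found elsewhere, the longest being 20.5 kb on III, 22.5 kb on IV and 23.3 kb on V. Over the last 71.2 kb of II, 17 peaks had a median strength of 21.4, against 5.62 over all of II, and 8 of them were in the strongest decile of the list. This interval was cut to begin at 15202748, where the strong series starts, so high values follow in part from that choice. Over the last 300 kb of II the median strength was 9.59. The second longest series of II, 21.8 kb from 3951187 to 3973033, was mostly the widest peak of the list. The series of II with the most peaks, 11 within 10.3 kb from 12870281 to 12880585, reached a strength of only 64.7 and was 55.3% covered.

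Very narrow peaks were listed in every segment. On II 143 peaks (8.16%, 6.92 to 9.54) were narrower than 100 bp, at 7.65% in the left, 7.87% in the middle and 8.81% in the right segment. The share on II was near that of the whole list, 9.04%, and was 9.44% on III, 7.82% on IV and 6.33% on V. Of the narrow peaks of II, 6 were a single base pair wide, as on IV and V, and III had 2 such peaks.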
